A study of Mus musculus with 12 samples.

Results

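The odorant receptor (OR) cluster of mouse chromosome 19 was followed through the deprivation of one nostril of odour. Its members were taken as the genes with a probe set that carries exactly 1 gene symbol in the annotation of the array, the symbol being one from Olfr1417 to Olfr1505 by number with no suffix, with Olfr1463 left out and with 1 probe set per gene, the one with the highest mean over the 12 arrays. This gave 55 of the 1015 OR genes on the array. All 55 lie on chromosome 19 in RefSeq, and 52 of them had a mean log2 level above 5, the limit for testing, as did 984 of the 1015 OR genes. The 3 others were Olfr1436, with log2 levels of 3.33 to 4.64 over the 12 arrays, Olfr1457, with 4.41 to 5.17, and Olfr1475, with 3.83 to 5.12, and none of them was tested.

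RNA of the main olfactory epithelium (MOE) was read on Affymetrix Mouse Gene 1.0 ST arrays after unilateral naris occlusion (UNO), in which the right nostril of mice was sealed by electrocautery at 2 weeks of age and each side of the MOE was collected separately 3 weeks later. The 4 groups, each of 3 samples, were the closed side of H2be-KO mice, the open side of H2be-KO mice, the closed side of wild type (WT) mice and the open side of WT mice, so all animals had been operated on and the open side shared the body and the surgery of the closed one. In the KO the coding sequence of H2be, which encodes an H2B histone variant of olfactory neurons, is replaced by one for GAP43-mCherry, so neurons that would express H2be are still there and make a membrane-bound reporter. Titles and design text give the mice an age of 5 weeks, while the age tag of the samples gives 6 months. By the design text each sample pooled tissue of 2 mice, 1 female and 1 male, while the legends of the study give a larger number. No label says which samples share mice, and p-values measure only the spread between these pooled samples.

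Each olfactory sensory neuron transcribes 1 OR gene, and from only 1 of its alleles, out of a large repertoire of genes that sit in clusters on most chromosomes. The receptor sets which odorants the neuron answers and where its axon ends in the olfactory bulb, so the level of an OR transcript in whole tissue follows both the number of neurons that chose the gene and the RNA each of them holds. In these bulk samples fewer cells of a type and less RNA per cell cannot be told apart. The genes of a cluster arose mostly by local duplication, and the subfamilies (MOR numbers, from mouse OR) group those with related proteins.

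The array medians were 7.21 to 7.30 on the log2 scale. The values were normalised before, which brings medians together, so this does not show how alike the raw signals were. Pearson correlations over all probe sets were 0.965 to 0.978 between arrays of a group and 0.963 to 0.977 between arrays of different groups. For H2be itself the KO minus WT log2 difference was -0.27 in closed and -0.26 in open arrays, with unadjusted p of 0.0026 and 0.0034 and adjusted p of 0.999 and 0.641 over all probe sets (limma). The probe positions were not used here, so whether the probe set reads sequence that the KO allele keeps was not tested. Defining markers of olfactory neurons were high in all groups, with Omp means of 12.70 and 12.64 on the closed and open sides in the KO and of 12.59 and 12.60 in the WT.

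Along the chromosome the members fall into stretches of related genes. Olfr1417 to Olfr1420 belong to MOR266, Olfr1423 to Olfr1428 to MOR239, Olfr1431 to Olfr1436 to MOR214 and Olfr1440 and Olfr1441 to MOR215. The long middle stretch, Olfr1442 to Olfr1489, is MOR202, with 27 of the 52 members above the limit. A second stretch of MOR266 (Olfr1490 to Olfr1495) follows, and the end is Olfr1496 of MOR127 and the genes of MOR211 and MOR212 (Olfr1497 to Olfr1505). RefSeq lists 91 genes of the Olfr series between the first and the last member, and 28 of these are pseudogenes. Of 60 such genes in the number range that are not pseudogenes, 5 were not members: Olfr1425 and Olfr1437 share probe sets with other symbols, Olfr1463 was left out by the rule, and Olfr1432 and Olfr1458 were not matched to a probe set here.

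Several members have nearly the same coding start, and whether their probe sets read each other's transcripts was not tested. RefSeq windows (GRCm38.p6) were matched to 53 of the 55 members, and in 46 of them the coding sequence starts at the end of the first 250 bases, so that the first 50 coding bases could be compared. Among 1035 pairs, 12 had at least 45 of the 50 bases in common. The sets printed here are shown because they hold members that fell, with others that fell too or that were not called. Olfr1461 shares 42 of the 50 bases with Olfr1446 and with Olfr1447, below that limit of 45. Olfr1444 shares as many with each of them, but it was not called and is not printed. Its averaged log2 change was -0.24 (adjusted p = 0.288, limma). Capitals mark the positions that vary within a set, and positions are counted from 1 at the A of the start codon. Olfr1446 (chr19:12890526-12890575, minus strand) and Olfr1447 (chr19:12901729-12901778, minus strand) have the same 50 bases, and Olfr1461 (chr19:13165016-13165065, plus strand) differs from both at 8 positions, written from Olfr1461 to the others as C7A, G9A, G10A, T19A, T25G, T27A, A30G and T43C.
Olfr1461: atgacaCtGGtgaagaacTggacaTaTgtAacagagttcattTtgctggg
Olfr1446: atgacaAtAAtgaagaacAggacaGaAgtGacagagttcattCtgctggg
Olfr1447: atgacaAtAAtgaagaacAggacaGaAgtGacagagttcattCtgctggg
Olfr1417 (chr19:11828975-11829024, minus strand) and Olfr1418 (chr19:11855902-11855951, minus strand) differ by A6G.
Olfr1417: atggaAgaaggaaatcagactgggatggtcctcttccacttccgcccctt
Olfr1418: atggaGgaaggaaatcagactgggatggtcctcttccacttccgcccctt
Olfr1484 (chr19:13585306-13585355, plus strand) differs from Olfr1480 (chr19:13529675-13529724, plus strand) by G6T, A27T and C40G and from Olfr1487 (chr19:13619164-13619213, plus strand) by those and C22T.
Olfr1484: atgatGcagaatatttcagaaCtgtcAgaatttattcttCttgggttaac
Olfr1480: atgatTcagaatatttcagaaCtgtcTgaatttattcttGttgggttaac
Olfr1487: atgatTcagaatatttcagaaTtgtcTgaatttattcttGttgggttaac

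The windows of 7 members open at a transcript start instead, and their 250 upstream bases were searched on both strands for 2 short motifs. The homeodomain core TAATNA, of the kind bound by LHX2 and EMX2, occurs upstream of 5 of the 7, against 66.8% of 259 OR windows of the same kind and 24.3% of all 32851 windows in the table. The core CCCNNGGG, of the kind bound by the EBF (O/E) factors, occurs upstream of 1 of the 7, against 7.34% of the 259 and 11.8% of all windows. Olfr1434, the one of the 7 whose level fell, is shown with the core TAATNA in capitals (chr19:12279604-12279853, plus strand). There 2 matches overlap, TAATTA, which reads the same on both strands, and TTATTA, which matches the core on the opposite strand only. Olfr1443 is shown with its single CCCNNGGG (chr19:12677916-12678165, plus strand).
Olfr1434: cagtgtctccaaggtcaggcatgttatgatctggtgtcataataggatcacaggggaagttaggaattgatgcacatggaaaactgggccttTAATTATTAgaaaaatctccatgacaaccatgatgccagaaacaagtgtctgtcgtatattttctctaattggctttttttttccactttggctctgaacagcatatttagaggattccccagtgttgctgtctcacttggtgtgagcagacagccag
Olfr1443: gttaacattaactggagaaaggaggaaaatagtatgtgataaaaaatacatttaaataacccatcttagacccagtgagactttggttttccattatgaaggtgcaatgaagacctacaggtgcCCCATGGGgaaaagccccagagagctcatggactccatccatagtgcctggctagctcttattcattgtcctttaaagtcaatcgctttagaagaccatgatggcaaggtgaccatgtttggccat
These matches are runs of letters, and no binding was measured at either gene in these samples.

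Within the OR repertoire the members were of moderate level. The median of their mean log2 levels was 6.83, against 7.24 for the other 932 OR genes above the limit, and 23 of the 52 had a mean above 7. The highest was Olfr1442 (mean log2 level 8.76), followed by Olfr1440 (8.47), Olfr1423 (8.44) and Olfr1427 (8.44), and the lowest of those tested were Olfr1465 (5.12) and Olfr1502 (5.28). Levels of different genes come from different probes, so this order is that of array signals and not of transcript numbers.

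To determine how odour deprivation altered the cluster, closed and open sides were compared within each genotype and for the average of both, by limma on the log2 scale with p-values adjusted over the OR genes (Benjamini-Hochberg, called at 0.05). On average over the genotypes 11 of the 52 members fell on the closed side and 2 rose, against 9.45% lower and 16.8% higher of all 984 OR genes tested. Those that fell were Olfr1461, Olfr1431, Olfr1417, Olfr1446, Olfr1434, Olfr1447, Olfr1484, Olfr1440, Olfr1428, Olfr1466 and Olfr1494, and those that rose were Olfr1420 and Olfr1442. The changes were moderate, with log2 changes of -0.57 to -0.22 among the falls and of 0.40 and 0.26 for the rises. At an unadjusted p under 0.05, 13 members were lower and 4 higher on average (limma), against 14.4% lower and 24% higher of all OR genes. With the adjustment over all 32615 probe sets tested, 6 of the falls (Olfr1461, Olfr1431, Olfr1417, Olfr1484, Olfr1434 and Olfr1440) and the rise of Olfr1420 were still called, where 1.23% of probe sets were called lower and 1.66% higher. Leaving out 1 array at a time left between 8 and 13 members called lower on average, and 8 of the 11 (Olfr1417, Olfr1431, Olfr1434, Olfr1440, Olfr1446, Olfr1461, Olfr1466 and Olfr1484) were called lower every time.

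**Figure D1:**
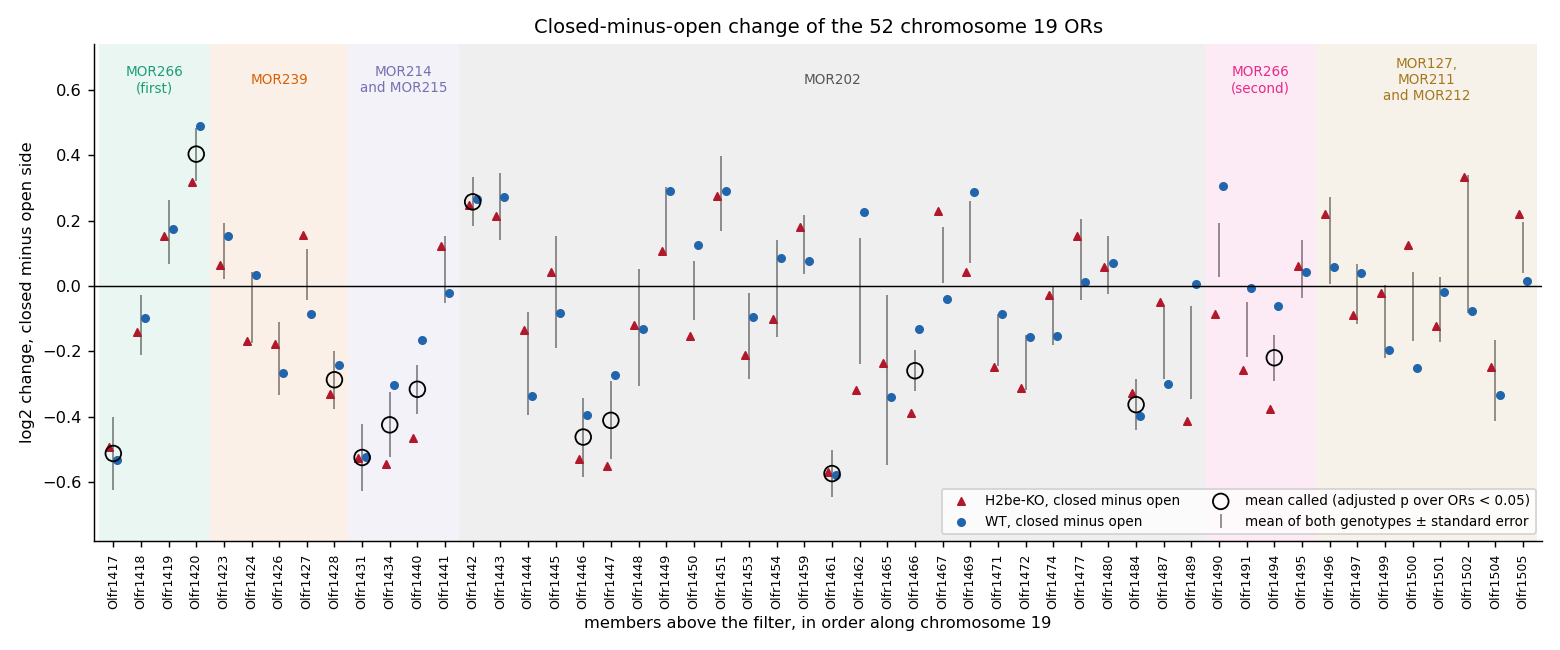
Log2 change between closed and open side (y axis) of the 52 members in their order along chromosome 19 (x axis), for H2be-KO mice (red triangles) and WT mice (blue circles), with the mean of both as a grey bar of ± 1 standard error and open circles around the 13 means that were called. Shading marks the subfamilies; called falls lie from Olfr1417 to Olfr1494, and none of the 8 members after Olfr1495 was called.

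As a whole the members leaned to the lower side, while the median of the other OR genes lay above 0. The median averaged change was -0.07 over the 52 members and 0.03 over the other 932 OR genes, and 33 of the 52 members lay below 0, against 45.2% of the others. In KO mice the medians were -0.11 for the members and 0.05 for the other OR genes. In WT mice they were -0.07 and 0.02. These medians describe the members as chosen, and no test was made of the list.

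**Figure D2:**
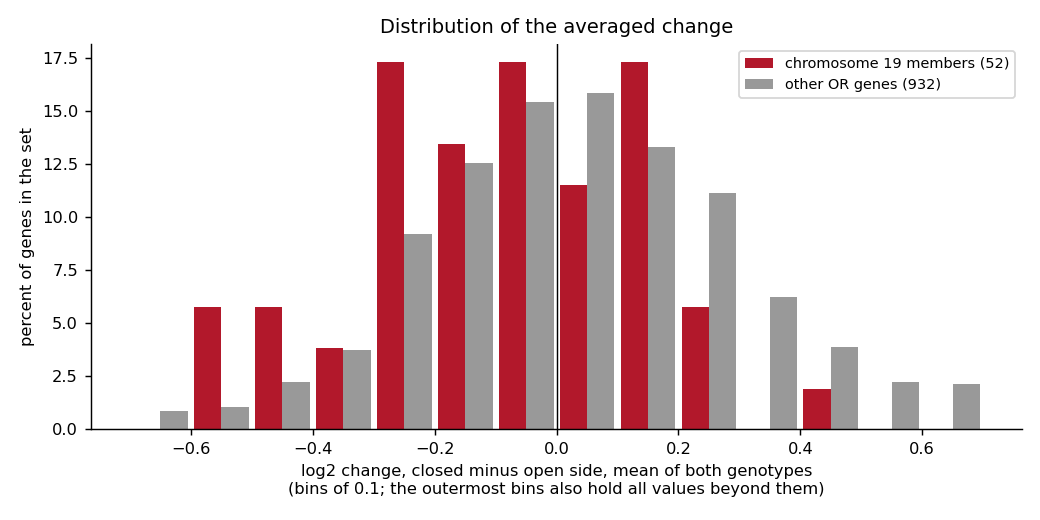
Percent of the 52 members (red) and of the 932 other OR genes (grey) in each bin of 0.1 (y axis) of the log2 change between closed and open side averaged over the genotypes (x axis). From -0.6 to -0.4 lie 6 members, and above 0.3 lies 1, Olfr1420.

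Set against the other OR genes, the members were lower on the closed side array by array. The mean log2 level of the 52 members minus that of the other 932 OR genes was -0.50, -0.57 and -0.49 on the closed side of KO mice, against -0.32, -0.43 and -0.37 on the open side. In WT mice it was -0.46, -0.49 and -0.43 on the closed side, against -0.32, -0.37 and -0.41 on the open side. All 3 closed arrays lay below all 3 open arrays in each genotype, and the gap between closed and open means was wider in the KO, with means of -0.52 ± 0.04 and -0.37 ± 0.05 (SD, n = 3), than in the WT, with -0.46 ± 0.03 and -0.37 ± 0.05 (SD, n = 3). The genotypes were not tested against each other on this measure. The member mean alone was 6.79, 6.77 and 6.86 in closed and 6.90, 6.93 and 6.90 in open arrays of the KO. In the WT it was 6.80, 6.82 and 6.99 in closed and 6.96, 6.96 and 6.89 in open arrays, so the sides overlapped there. The measure also moves with the other OR genes, whose mean was highest in WT closed array 3, at 7.42.

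**Figure D3:**
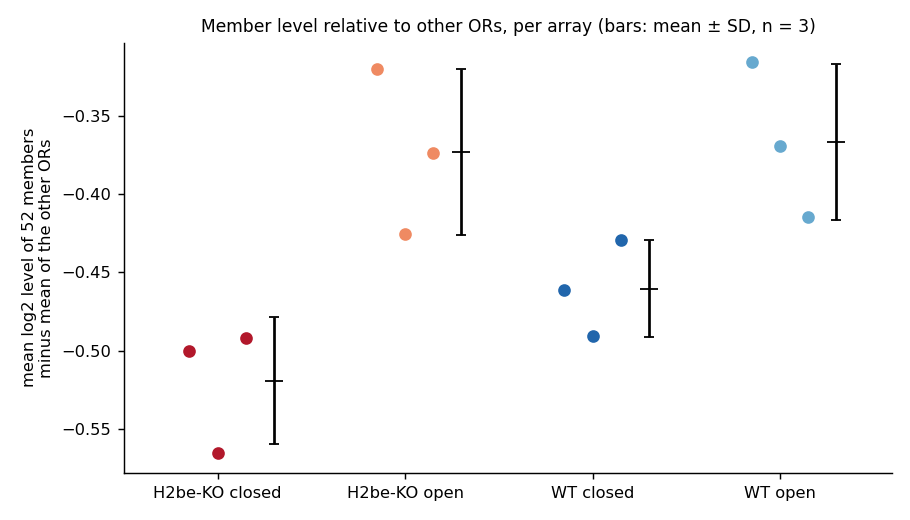
Mean log2 level of the 52 members minus the mean of the 932 other OR genes (y axis) in each array (points), by group, with mean ± SD (bars, n = 3). The closed arrays lie below the open arrays of their genotype, at -0.57 to -0.43 against -0.43 to -0.32.

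Olfr1461, a receptor of the MOR202 subfamily, fell most. Its log2 level was 6.63, 6.83 and 6.87 in the closed arrays of KO mice and 7.35, 7.37 and 7.31 in the open ones. In WT mice it was 6.82, 6.84 and 6.79 in the closed arrays and 7.41, 7.55 and 7.22 in the open ones. Every closed array lay below every open array, whichever the genotype. The log2 change was -0.57 ± 0.10 in the KO (SE; adjusted p = 0.0051, limma) and -0.58 ± 0.10 in the WT (adjusted p = 0.0037), and -0.57 ± 0.07 on average (adjusted p = 1.6e-04 over OR genes and 9.2e-04 over all probe sets), a 1.49-fold lower level. It was the only member called in both genotypes with the adjustment over all probe sets, and each of its calls held with each array left out in turn (adjusted p over OR genes of at most 0.025).

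Olfr1431 and Olfr1434 are the members of MOR214 that were tested, and both fell. Olfr1431 read 5.67, 6.07 and 6.31 in closed and 6.58, 6.54 and 6.50 in open arrays of the KO. In the WT it read 6.09, 6.17 and 5.81 in closed and 6.50, 6.55 and 6.61 in open arrays. The open arrays lay close together while the closed arrays of the KO were spread, and closed lay below open throughout. Its log2 change was -0.53 ± 0.15 in the KO (adjusted p = 0.038, limma), -0.52 ± 0.15 in the WT (adjusted p = 0.037) and -0.52 ± 0.10 on average (adjusted p = 0.0034). The averaged call held with each array left out in turn (adjusted p of at most 0.0096), whereas leaving out any of 7 arrays (KO closed 1 and 2, each KO open and WT open 1 and 2) ended the call in the KO (adjusted p up to 0.114) and any of 9 (each WT array and each KO open) that in the WT (up to 0.118). Olfr1434 read 5.57, 5.62 and 5.66 in closed and 6.11, 6.10 and 6.27 in open arrays of the KO, and 5.73, 5.42 and 5.89 in closed and 6.25, 5.93 and 5.77 in open arrays of the WT. It fell in the KO, by a log2 change of -0.55 ± 0.14 (adjusted p = 0.028, limma), whereas in the WT the sides overlapped and the change was -0.30 ± 0.14 (adjusted p = 0.198). Its averaged change was -0.42 ± 0.10 (adjusted p = 0.0084, limma; at most 0.023 with each array left out in turn), and the call in the KO was lost without any of the 6 KO arrays (adjusted p up to 0.093).

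Olfr1440, also known as MOR215-1, is the mouse receptor for muscone, the macrocyclic ketone of musk. With a mean log2 level of 8.47 it was among the brightest members. It read 8.22, 8.18 and 8.53 in closed and 8.74, 8.73 and 8.85 in open arrays of KO mice. In WT mice it read 8.22, 8.35 and 8.40 in closed and 8.51, 8.42 and 8.55 in open arrays. Closed lay below open in both genotypes, by a narrow margin in the WT, and the open arrays of the KO lay above those of the WT. The log2 change was -0.47 ± 0.11 in the KO (adjusted p = 0.015, limma), -0.17 ± 0.11 in the WT (adjusted p = 0.341) and -0.32 ± 0.07 on average (adjusted p = 0.0089). Leaving out KO closed array 1 or 2 or KO open array 3 ended the call in the KO (adjusted p up to 0.065), and no single array ended the averaged one. The difference between the genotypes was -0.30 ± 0.15, with an unadjusted p of 0.069 and an adjusted p of 0.996 (limma), so it did not pass. The other MOR215 member, Olfr1441, had an averaged change of 0.05. Of the 4 tested members of MOR214 and MOR215, 3 fell on average, with a median change of -0.37, where 9.45% of all OR genes were called lower.

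**Figure D4:**
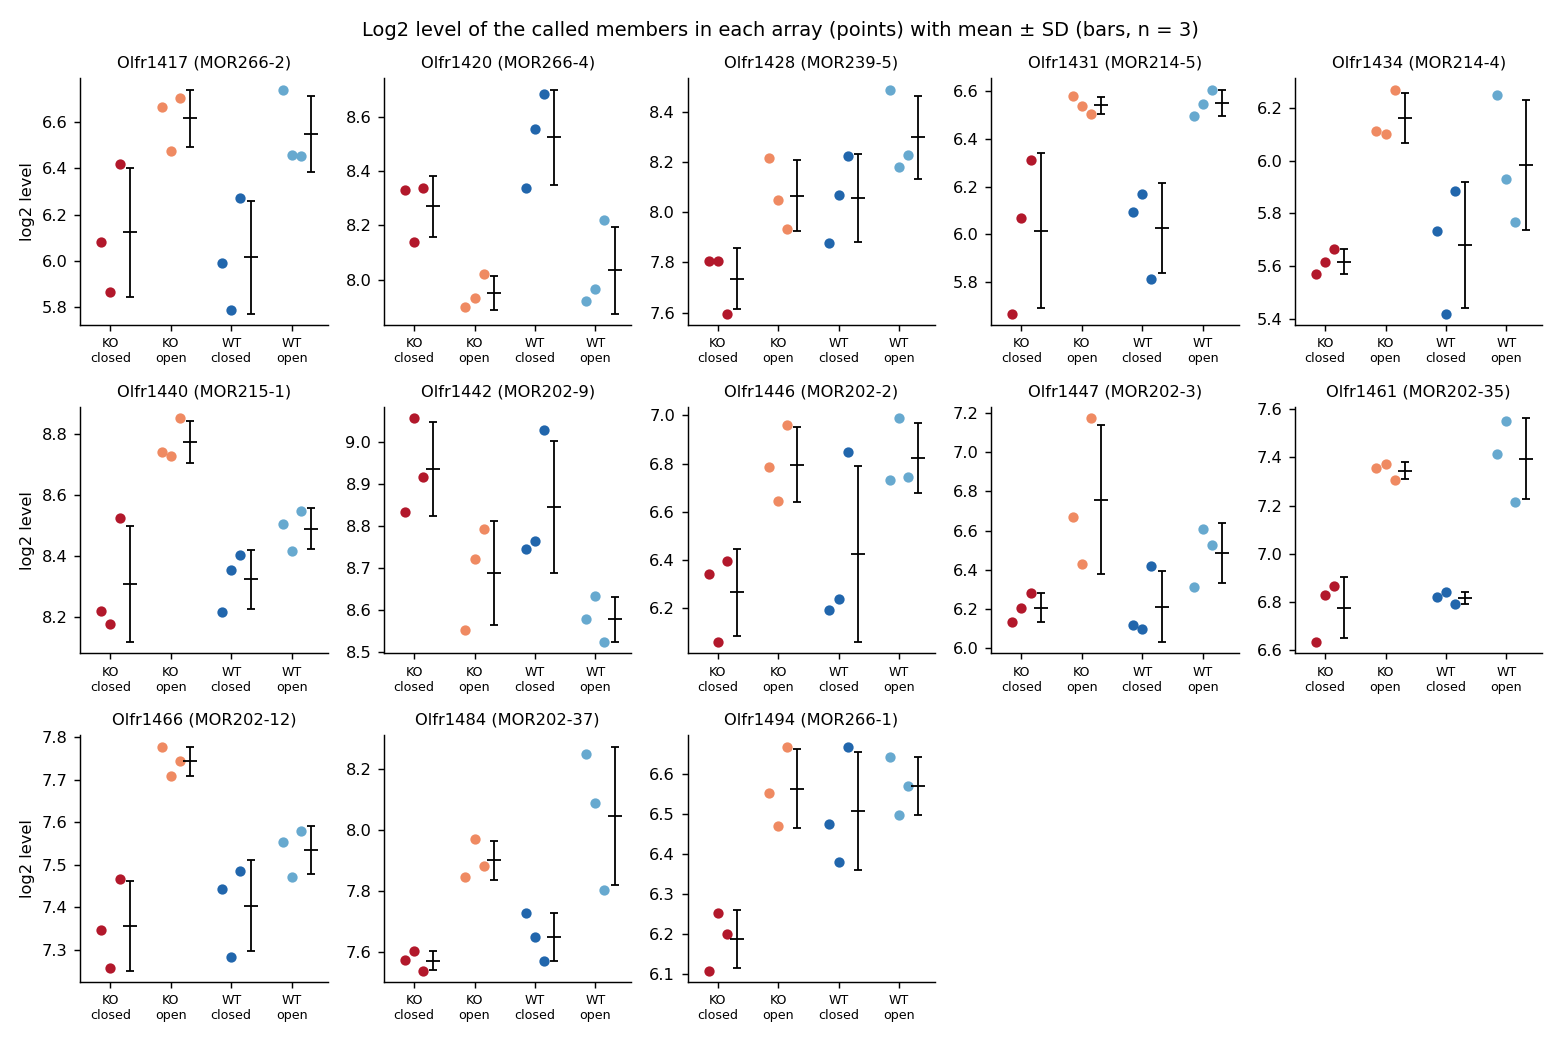
Log2 level (y axis) of the 13 called members in the 3 arrays (points) of each group, H2be-KO closed and open (dark and light red) and WT closed and open (dark and light blue), with mean ± SD (bars, n = 3). Each panel has its own y range; Olfr1420 and Olfr1442 are higher on the closed side and the other 11 lower on average.

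The proximal stretch of MOR266 held 1 called fall and 1 called rise on average. Olfr1417, the first gene of the cluster, read 6.08, 5.87 and 6.42 in closed and 6.67, 6.47 and 6.70 in open arrays of the KO. In the WT it read 5.99, 5.79 and 6.27 in closed and 6.74, 6.46 and 6.45 in open arrays. Closed lay below open in both genotypes. The log2 change was -0.49 ± 0.16 in the KO (adjusted p = 0.068, limma), which did not pass, -0.53 ± 0.16 in the WT (adjusted p = 0.048) and -0.51 ± 0.11 on average (adjusted p = 0.0061). The averaged call held with each array left out in turn (adjusted p of at most 0.017), and that in the WT, which lay just inside the threshold, was lost without any of 9 arrays (KO closed 1, each KO open, WT closed 1 and 2 and each WT open, with adjusted p up to 0.170). Olfr1418, whose coding start differs from it by 1 base, had an averaged change of -0.12 ± 0.09 (adjusted p = 0.364, limma), with closed and open arrays overlapping in both genotypes. Their probe sets thus gave different readings in the same arrays, and how much of either signal comes from the other gene was not tested.

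Olfr1420, in the same stretch, was the member that rose most. It read 8.33, 8.14 and 8.34 in closed and 7.90, 7.93 and 8.02 in open arrays of KO mice. In WT mice it read 8.34, 8.55 and 8.68 in closed and 7.92, 7.97 and 8.22 in open arrays. The sides were apart in both genotypes. The log2 change was 0.32 ± 0.11 in the KO (adjusted p = 0.099, limma), which did not pass, 0.49 ± 0.11 in the WT (adjusted p = 0.017) and 0.40 ± 0.08 on average (adjusted p = 0.0038 over OR genes and 0.021 over all probe sets), a 1.32-fold higher level. No single array ended the averaged call, and WT closed array 2 or 3 or WT open array 1 or 2, when left out, ended that in the WT (adjusted p up to 0.069).

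Olfr1442, the first gene of MOR202 and the brightest member, rose on average only. It read 8.83, 9.06 and 8.92 in closed and 8.55, 8.72 and 8.79 in open arrays of the KO, and 8.75, 8.76 and 9.03 in closed and 8.58, 8.63 and 8.52 in open arrays of the WT. The sides did not overlap in either genotype, and the change was 0.25 ± 0.11 in the KO, 0.27 ± 0.11 in the WT and 0.26 ± 0.07 on average (adjusted p = 0.026, limma). Leaving out KO closed array 2, KO open array 1, WT closed array 3 or WT open array 3 ended this call (adjusted p up to 0.067). Its neighbour Olfr1443, with an averaged change of 0.24, also had closed arrays above open arrays in both genotypes but was not called.

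In MOR202 5 of 27 members fell on average and 1 rose, and 18 lay below 0, with a median change of -0.09, against 9.45% called lower, 16.8% called higher and 46.1% below 0 of all OR genes. Olfr1446 read 6.34, 6.06 and 6.40 in closed and 6.79, 6.65 and 6.96 in open arrays of the KO. In the WT it read 6.19, 6.24 and 6.85 in closed and 6.73, 6.99 and 6.74 in open arrays, where 1 closed array lay among the open ones. Olfr1447, with the same first 50 coding bases, read 6.13, 6.21 and 6.28 in closed and 6.67, 6.43 and 7.17 in open arrays of the KO, and 6.12, 6.10 and 6.42 in closed and 6.31, 6.61 and 6.53 in open arrays of the WT. Both fell on average, by -0.46 ± 0.12 (adjusted p = 0.016, limma) and -0.41 ± 0.12 (adjusted p = 0.026), and neither was called in a single genotype. Leaving out any of 5 arrays (KO closed 1, WT closed 1 and 2 and WT open 2 and 3) ended the averaged call of Olfr1447 (adjusted p up to 0.060), and none ended that of Olfr1446 (up to 0.040). Whether these are separate changes or 1 signal read by both probe sets was not tested.

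Olfr1484 was the one of its printed set, with Olfr1480 and Olfr1487, that was called. It read 7.57, 7.60 and 7.54 in closed and 7.85, 7.97 and 7.88 in open arrays of the KO. In the WT it read 7.73, 7.65 and 7.57 in closed and 8.25, 8.09 and 7.80 in open arrays. All closed arrays lay below all open arrays, and the log2 change was -0.33 ± 0.11 in the KO (adjusted p = 0.074, limma), which did not pass, -0.40 ± 0.11 in the WT (adjusted p = 0.034) and -0.36 ± 0.08 on average (adjusted p = 0.0051). The averaged call held with each array left out in turn (adjusted p of at most 0.014), and that in the WT was lost without any of 6 arrays (KO closed 3, each WT closed and WT open 1 and 2, with adjusted p up to 0.128). The averaged change was 0.06 ± 0.09 for Olfr1480 and -0.18 ± 0.11 for Olfr1487, with sides that overlapped in both genotypes for each.

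Olfr1466, Olfr1494 and Olfr1428 had smaller averaged falls. Olfr1466 (MOR202) read 7.35, 7.26 and 7.47 in closed and 7.78, 7.71 and 7.75 in open arrays of the KO, and 7.44, 7.28 and 7.48 in closed and 7.55, 7.47 and 7.58 in open arrays of the WT. Its change was -0.39 ± 0.09 in the KO (adjusted p = 0.016, limma) and -0.13 ± 0.09 in the WT (adjusted p = 0.375). As for Olfr1440, its open arrays in the KO all lay above those of the WT, while its closed arrays overlapped between the genotypes. Olfr1494 (distal MOR266) read 6.11, 6.25 and 6.20 in closed and 6.55, 6.47 and 6.67 in open arrays of the KO, and 6.47, 6.38 and 6.67 in closed and 6.64, 6.50 and 6.57 in open arrays of the WT. Here it was the closed arrays of the KO that stood below all the rest, and the change was -0.38 ± 0.10 in the KO (adjusted p = 0.030, limma) and -0.06 ± 0.10 in the WT (adjusted p = 0.739). Olfr1428 (MOR239) read 7.81, 7.80 and 7.60 in closed and 8.22, 8.05 and 7.93 in open arrays of the KO, and 7.88, 8.07 and 8.22 in closed and 8.49, 8.18 and 8.23 in open arrays of the WT. It was called on average only, with a change of -0.29 ± 0.09 (adjusted p = 0.034, limma). Leaving out any of 6 arrays (KO closed 3, KO open 1 and 2, WT closed 1 and 2 and WT open 1) ended that call, with adjusted p of up to 0.079, and any of 8 (KO closed 1 and 3, KO open 1 and 3, WT closed 1 and 2 and WT open 1 and 3) ended the averaged call of Olfr1494, at -0.22 ± 0.07 (adjusted p = 0.038, up to 0.085), while that of Olfr1466, at -0.26 ± 0.06 (adjusted p = 0.010, limma), passed with each array left out in turn (up to 0.029). In the KO the call of Olfr1466 was lost without KO closed 2 or KO open 1 or 3 (adjusted p up to 0.067) and that of Olfr1494 without any KO closed array or KO open 1 or 3 (up to 0.101).

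The remaining stretches held few calls. The 5 tested MOR239 members had a median averaged change of -0.07, from -0.29 to 0.11, with Olfr1428 the 1 called. The 4 distal MOR266 members had a median of -0.04, with Olfr1494 the 1 called. None of the 8 members of MOR127, MOR211 and MOR212 was called in any comparison of the sides (limma), with 0 in the KO, 0 in the WT and 1 on average at an unadjusted p under 0.05, and their averaged changes lay between -0.29 and 0.14. Neighbours along the chromosome were only loosely alike, with a Pearson r of 0.22 between the averaged changes of 51 neighbouring pairs, which share arrays and in part sequence, and the same sign in 28 pairs.

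Taken by genotype, fewer members passed. In KO mice 6 members fell on the closed side (Olfr1461, Olfr1434, Olfr1431, Olfr1440, Olfr1466 and Olfr1494) and 0 rose, against 3.96% lower and 8.03% higher of all OR genes, and leaving out 1 array moved the 6 to between 1 (KO closed 2 or KO open 3) and 7, with 2 left without KO closed 1 or KO open 1. At an unadjusted p under 0.05, 14 members were lower and 2 higher in KO mice (limma), against 10.2% lower and 16.5% higher of all OR genes. In WT mice 4 fell (Olfr1461, Olfr1431, Olfr1417 and Olfr1484) and 1 rose (Olfr1420), against 3.86% lower and 9.15% higher, and leaving out 1 array moved the 4 to between 1 (WT closed 1 or 2, WT open 1 or 2) and 4, with 2 left without WT open 3 or any KO open array. At an unadjusted p under 0.05, 5 members were lower and 3 higher in WT mice, against 9.04% lower and 16.6% higher of all OR genes, so that the 5 lower were near the share of all OR genes. With the adjustment over all probe sets, Olfr1461 alone was called lower in each genotype and 0 members higher, where 0.34% of probe sets were called lower and 0.705% higher in the KO and 0.38% lower and 0.475% higher in the WT. Both genotypes called Olfr1461 and Olfr1431, which is 33.3% of the calls in the KO and 40% of those in the WT.

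The closed and open arrays of single members were also compared for overlap. In KO mice all 3 closed arrays lay below all 3 open ones for 14 of the 52 members, where 11.8% of OR genes did so, and above them for 3, where 20.1% did. In WT mice the closed arrays lay below the open ones for 6 members, where 10.4% of OR genes did so, and above them for 5, where 17.6% did, so that the 6 were near the share of all OR genes. There were 0 members with sides apart in opposite directions in KO and WT mice.

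Because the genotypes share no arrays, their changes can be set side by side. Over the 52 members the KO and WT changes had a Pearson r of 0.66 and a Spearman rho of 0.64, with 25 members below 0 in both and 14 above 0 in both. Over the other 932 OR genes r was 0.77 and rho 0.74. Members are not independent of each other, since all come from the same arrays, and these values carry no test.

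**Figure D5:**
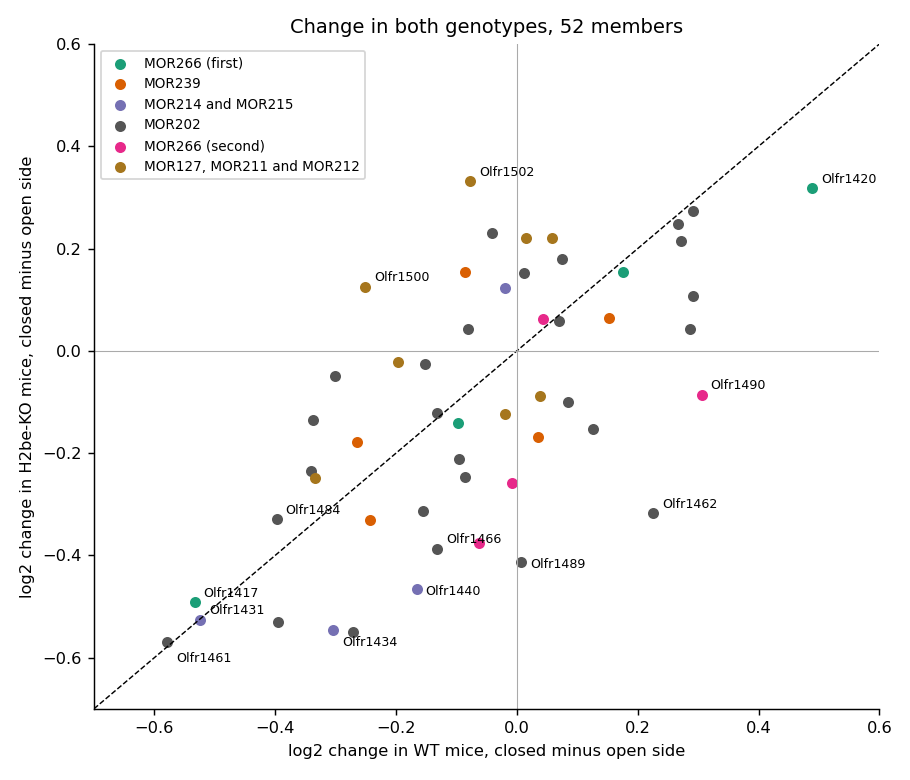
Log2 change between closed and open side in H2be-KO mice (y axis) against that in WT mice (x axis) for the 52 members, coloured by subfamily, with the line of equal change (dashed). Olfr1461, Olfr1431 and Olfr1417 lie near the line at the lower left and Olfr1420 at the upper right, while Olfr1440, Olfr1466 and Olfr1489 lie below it.

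To ask whether loss of H2be altered the response, the KO change was compared with the WT change for each member. The test of this difference called 0 of the 52 members and 0% of the 984 OR genes (limma, adjusted over OR genes). At an unadjusted p under 0.05 it gave 2 members, Olfr1490 and Olfr1494. These are 3.85% of the members, near the 3.35% of all OR genes. Olfr1490 (MOR266) read 7.30, 7.16 and 7.36 in closed and 7.42, 7.34 and 7.32 in open arrays of the KO, and 7.91, 7.64 and 7.43 in closed and 7.37, 7.38 and 7.31 in open arrays of the WT. Its closed arrays lay above its open ones in the WT alone, and the difference between the genotypes was -0.39 ± 0.16 (95% confidence interval -0.75 to -0.04, adjusted p = 0.996, limma). This interval takes no account of the number of genes tested. The widest differences were those of Olfr1462, at -0.54 ± 0.38, and Olfr1489, at -0.42 ± 0.29, on the side of a lower KO change, and of Olfr1502, at 0.41 ± 0.42, Olfr1500, at 0.38 ± 0.21, and Olfr1467, at 0.27 ± 0.17, on the other. Their intervals all held 0, and for Olfr1462 the 95% confidence interval ran from -1.38 to 0.30, so that differences of such size could not be told from none with 3 arrays a group. For Olfr1461 the difference was 0.01 ± 0.14, with an interval from -0.30 to 0.32, and for Olfr1431 the interval ran from -0.46 to 0.45.

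The genotypes were also compared on each side, and these comparisons use the same arrays as those above. On the closed side 0 of the 52 members and 0% of the OR genes were called between KO and WT (limma, adjusted over OR genes). At an unadjusted p under 0.05 there were 9 members, all lower in the KO, against 6.71% of OR genes in either direction and 39 of the 984 OR genes lower. They were Olfr1489 (-0.58), Olfr1490 (-0.39), Olfr1424 (-0.35), Olfr1449 (-0.34), Olfr1428 (-0.32), Olfr1494 (-0.32), Olfr1450 (-0.32), Olfr1491 (-0.32) and Olfr1420 (-0.25), each value being the log2 difference of KO minus WT. Of these, Olfr1489, Olfr1490, Olfr1491 and Olfr1494 are consecutive among the members tested, at the border of MOR202 and distal MOR266. Their adjusted p lay between 0.675 and 0.695 (limma). The run was picked after the values were seen, and it was not tested as a stretch. The 3 closed arrays of the KO lay below the 3 of the WT for 7 members, where 6.2% of OR genes did so, and above them for 0, where 4.88% did.

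On the open side 0 members and 0% of OR genes were called, and 3 members had an unadjusted p under 0.05, against 6.91% of OR genes (limma). Olfr1440 and Olfr1466 were higher in the KO there, by 0.28 ± 0.11 (adjusted p = 0.562) and 0.21 ± 0.09 (adjusted p = 0.648), and Olfr1505 was lower by a log2 difference of -0.27. Arrays of the genotypes were apart for 2 members with the KO above (4.37% of OR genes) and 2 with the KO below (7.52%). None of these differences passes as a call, and they are given as values.

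Some of the 5 largest rises of a genotype were of MOR202 members that were not called. Olfr1451 had log2 changes of 0.27 ± 0.16 in the KO and 0.29 ± 0.16 in the WT, Olfr1449 of 0.11 ± 0.15 in the KO and 0.29 ± 0.15 in the WT, and Olfr1469 of 0.04 ± 0.13 in the KO and 0.29 ± 0.13 in the WT. Olfr1462 and Olfr1502, with mean log2 levels of 5.35 and 5.28, had standard errors of 0.27 and 0.30, and both lie close to the limit for testing.

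The machinery that OR genes depend on was read in the same arrays. Among 11 regulators of OR genes, which include the homeodomain proteins Lhx2 and Emx2, the EBF factors, the cofactor Ldb1 and the demethylase Kdm1a, 0 were called between the sides in the KO, the WT or on average (limma, adjusted over all probe sets), with 1, 0 and 2 of them at an unadjusted p under 0.05. Lhx2 had an averaged change of 0.02, Ldb1 of -0.10 and Kdm1a of -0.15. Of 13 genes of OR signalling and trafficking, 7 rose on the closed side on average and 0 fell, with a median change of 0.26, against 1.66% higher and 1.23% lower of all probe sets. In single genotypes 3 of the 13 were called higher in the KO and 1 in the WT. Among them were the cyclic nucleotide gated channel subunits Cnga4 (0.40) and Cngb1 (0.38), the chloride channel Ano2 (0.37), the adenylyl cyclase Adcy3 (0.29) and the OR chaperone Rtp1 (0.27). The members that fell on average did so in the same arrays in which these transduction transcripts were higher, and whether the changes are related was not tested.

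Cell type markers moved with the side as well. All 5 markers of immature olfactory neurons were lower on the closed side on average, from -0.42 for Gng8 to -0.26 for Stmn2, and their summed linear level was 5212 to 5544 in closed and 6270 to 6990 in open arrays of the KO, and 5232 to 5514 in closed and 6550 to 6664 in open arrays of the WT. Of 6 markers of mature olfactory neurons, 5 were called higher on average, and Omp was not called (0.03). Of all probe sets 1.66% were called higher and 1.23% lower on average (limma). In single genotypes 1 of the 5 immature markers was called lower in the KO and 1 in the WT. Of the 6 mature markers 0 were called in either genotype. Of these 6, only Stoml3 is not among the 13 genes of OR signalling and trafficking above, so the other readings are the same ones. The summed level of the 6 was 25102 to 25220 in closed and 21129 to 22224 in open arrays of the KO, and 23693 to 25070 in closed and 21236 to 21534 in open arrays of the WT. Of 4 progenitor markers measured, 1, Neurod1, was lower (-0.27). The summed level of these 4 was 1464 to 1620 in closed and 1708 to 1831 in open arrays of the KO. In the WT it was 1488 to 1588 in closed and 1628 to 1774 in open arrays. Of the other markers above the limit, 0 of 4 for sustentacular cells, 0 of 3 each for horizontal basal cells, Bowman glands, respiratory ciliated cells and immune cells, 0 of 2 for ensheathing glia and 0 of 1 for vomeronasal neurons were called on average (limma), with 6 of these at an unadjusted p under 0.05. For the blood markers no probe set with a single symbol was matched, so their level was not read. The part of these shifts in the changes of the members was not tested.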

How the data were processed

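RNA from each side of the MOE was hybridised to 12 Affymetrix Mouse Gene 1.0 ST arrays, 3 for each of 4 groups. The authors normalised the arrays by sketch-quantile and summarised probes by IterPLIER in the Affymetrix Expression Console. The deposited values are log2 levels, one for each probe set in each array, without missing entries, and quantile normalisation makes levels relative within an array. Gene symbols came from the annotation of the platform (21789 probe sets with 1 symbol, 1621 with several, 12146 with none), and chromosome order, MOR names and sequences from RefSeq (GRCm38.p6).

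Using R 4.3.3 and limma 3.58.1, a mean per group was fitted to the 32615 of 35556 probe sets whose log2 level averaged above 5, and tests were two-sided with moderated variances (median 11.5 degrees of freedom). As in the methods of the study, p-values for ORs were adjusted over the 984 OR genes above the limit (Benjamini-Hochberg, threshold 0.05), and values adjusted over all probe sets are given beside them. Genes of the pathway and marker lists were called over all probe sets. The members and lists were chosen with earlier results of these data known. Members named with values are those called, the 5 largest changes each way in each genotype, Olfr1440, close copies and the 3 largest genotype differences each way. Olfr1424, Olfr1441, Olfr1443, Olfr1444, Olfr1450, Olfr1491 and Olfr1505 fall outside this rule and were named after their values were seen, as were members of the highest and lowest level. Protein sequences were not used here, so close copies were taken by the first 50 coding bases alone, a choice made after the data were seen. These bases were compared position by position without gaps, and the rest of the coding sequence was not compared. On simulated data with 200 changed OR genes the WT comparison called 20.9% of log2 changes of 0.3, 71.6% of 0.5 and 98.5% of 1, with 1.55% of calls false. The simulated noise was normal, with the fitted variances, and independent between probe sets and arrays. These shares need not hold for the real arrays, where probe sets can vary together. The number of arrays limits the precision. Alternatives were other filters, normalisations, fits and adjustments, a replicate block and each array left out. Plotting used matplotlib 3.10.9 under Python 3.11.15. The authors' own comparisons were not used.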

Additional observations from a re-analysis of the deposited data

How the results depend on the processing

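Calls of single genotypes depended on the processing more than those of the average did. With only probe sets above a mean of 7, 1 member was called higher in the KO, 2 were called lower in the WT and 5 lower on average, where fewer members were tested. With a trended and robust prior 3 were called lower in the KO and 2 in the WT. With array weights 2 were called higher and 10 lower in the KO. Adjusted over all probe sets, 1 was called lower in the KO, 0 higher and 1 lower in the WT, and 1 higher and 6 lower on average. Fitted on the groups compared only, 0 were called higher and 1 lower in the WT. For changes other than those of the number of genes or samples, the cause was not tested.

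Same-numbered closed and open arrays are not said to share mice. The correlation of their deviations was -0.009 to 0.233, above 0.1 in 2 of 6 pairs, and 3 of 6 closed arrays correlated best with the open array of their own number. With the replicate number as a block 3 members were called lower in the KO in place of 6, and the other counts stayed within 1.5 times.

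With each array left out, 0 to 1 members were called higher and 1 to 7 lower in the KO, 0 to 1 higher and 1 to 4 lower in the WT, 1 to 3 higher and 8 to 13 lower on average, and 0 between the genotypes on either side or in their response. Apart from the filter above 7, which leaves some untested, Olfr1417, Olfr1431, Olfr1434, Olfr1440, Olfr1461 and Olfr1484 were called lower on average under every alternative run.

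Changes that turned sign were not called. With array weights the WT change of Olfr1489 was -0.023 and the averaged change of Olfr1502 -0.017. With an array left out, the KO change of Olfr1469 lay between -0.044 and 0.12. The WT change lay between -0.017 and 0.55 for Olfr1462, -0.10 and 0.067 for Olfr1467, -0.20 and 0.18 for Olfr1489, -0.14 and 8.3e-04 for Olfr1494 and -0.23 and 0.16 for Olfr1502. The averaged change lay between -0.17 and 0.12 for Olfr1462, -0.11 and 0.0017 for Olfr1500 and -0.022 and 0.26 for Olfr1502.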
